A study of Mus musculus with 8 samples.

Results

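Newborn (NB) and adult cortical thymic epithelial cells (cTEC) from wild-type C57BL/6 mice were compared here in single-cell RNA-seq libraries of the same data set, 1 library at each age. Cells were kept at up to 5% of UMIs (unique molecular identifiers, 1 per captured RNA molecule) from mt- genes, the mitochondrial transcripts, and at up to 5000 detected genes. This left 3605 NB and 507 adult cells, together 4112 of the 25750 cells that passed the same filters in all 8 libraries. Within them, cortical cells were those with at least 1 UMI of Psmb11 or Prss16 and fewer than 20 UMIs of Bpifa1, a secreted airway-type protein. There were 3589 such cells in the NB library and 325 in the adult library. Counts were summed over cells in each library, and a level is given below as CPM, which is counts per 1000000 UMIs of the summed cells.

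NB mice were 0–2 days old and adult mice 4–6 weeks old, of either sex. All carried CD45.2 and none carried a transgene. Both thymus samples were digested with Liberase TM and DNase I, and the sorted cells were DAPI-, CD45-, EpCAM+, Ly51+ and UEA-1-, the gate for cTEC. A second adult cTEC library, replicate 2, came from the other data set of the study and is given beside the first. The replicate numbers are only names, and the number of mice behind each library is not given in the sources used here.

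cTEC line the outer region of the thymus, where they attract lymphoid progenitors, drive their commitment to the T lineage and present the peptides on which thymocytes are positively selected. To make those peptides they use a thymus-specific proteasome subunit, Psmb11, a serine protease, Prss16, and the cathepsin Ctsl. The thymus grows quickly around birth, and the cortical epithelium becomes a smaller share of the organ afterwards.

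With 1 library at each age, no difference between libraries could be tested. Intervals below are exact 95% intervals for counting error alone and leave out the spread between animals. A gene entered the comparison when the mean of its 2 levels was at least 20 CPM, about 32.4 UMIs in the adult cortical cells. A gene near 0 in one library entered only when it was high in the other, and was then bound to be called. A gene is called higher or lower when its log2 ratio, adult over NB with 10 CPM added to both levels, was at least 1 in size, which is a 2-fold difference on that scale. The added 10 CPM makes the ratio of a low gene smaller, so plain folds of CPM with their intervals are given for named genes.

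The NB cortical cells held 24680374 UMIs, with a median of 6147 per cell, and the adult replicate 1 cells held 1620369, with a median of 4640. The 425 cortical cells of adult replicate 2 held 3466046 UMIs, with a median of 7685. NB and adult replicate 1 shared 1 cell barcode, and NB and adult replicate 2 shared 2. The adult libraries stood apart from each other. Between them, 160 of 5688 genes were at least 2-fold higher in replicate 2 (2.81%) and 396 were lower (6.96%). They came from different data sets, so animal and data set cannot be told apart in that comparison. Malat1, a nuclear non-coding RNA, was at 19459 CPM in NB, 60207 in adult replicate 1 and 32326 in adult replicate 2. The median share of mt- UMIs was 1.53% in NB, 0.809% in adult replicate 1 and 2.48% in adult replicate 2. Y-linked Ddx3y had 467 UMIs in NB cortical cells and 0 in either adult library, and Xist, from the inactive X chromosome, was at 1038, 1530 and 1387 CPM. Age and the sex of the mice therefore cannot be told apart.

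Cortical cells made up 99.6% of the NB library (3589 of 3605) and 64.1% of adult replicate 1 (325 of 507, exact binomial interval 59.8–68.3%). A further 163 adult cells had no Psmb11 or Prss16 UMI, and 19 had at least 20 Bpifa1 UMIs, 10 of which also had a cortical UMI. A single UMI is a weak mark of a cortical cell, because 25.1% of the cells of the medullary TEC (mTEC) library of the same data set also had one. The median depth of those mTEC was 9500.5 UMIs, against 6133 in NB and 3996 in adult replicate 1. Cells were then thinned to 2000 UMIs, which left out shallower cells and kept 441 of the 507 cells of adult replicate 1. After thinning, a Psmb11 or Prss16 UMI was found in 98.3% of NB cells, in 60.5% of those adult replicate 1 cells and in 5.93% of adult mTEC. The adult share was thus far above the mTEC share and below the NB share at equal depth. A sum over cells also does not tell fewer cells of a type from less RNA per cell.

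The cells of both ages carried cTEC markers, and those of adult replicate 1 also carried an mTEC marker. Of the 10 cTEC markers, Psmb11 and Prss16 chose the cells, so only the other 8 bear on the label. Those 8 summed to 24134 CPM in NB, 19674 in adult replicate 1 and 26033 in adult replicate 2. In the cells of adult replicate 1 without a cortical UMI they summed to 4019 CPM, and in all cells of the adult mTEC library to 1852 CPM. The chemokine Ccl21a of mTEC was at 199 CPM in NB, 4730 in adult replicate 1 and 477 in adult replicate 2, beside 6416 CPM in the adult mTEC library. Epithelial markers were at 18502, 11482 and 12186 CPM in sum. Erythroid markers were at or below 0.617 CPM in sum in the 3 libraries. The B cell markers were at 0.891 CPM in NB (22 UMIs), 1.23 in adult replicate 1 (2 UMIs) and 7.50 in adult replicate 2 (26 UMIs), where the list also held Ighm, a gene counted in data set 2 alone. The markers of other cell types are given beside the genes they move with.

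Of 6013 genes compared in cortical cells, 431 were higher in adult replicate 1 (7.17%) and 166 were lower (2.76%). Of the genes compared, 5200 were at 20 CPM or more in both libraries, and 229 of them were higher and 104 lower. A further 440 passed the filter through the adult level alone, 202 of them higher, and 373 through the NB level alone, 62 of them lower. The counting interval of the ratio lay wholly beyond 2-fold for 402 of the higher genes and 103 of the lower genes. Per-million scaling sets the balance between the sides. With TMM scaling, which moved the median log2 ratio of all genes by -0.12, 365 genes were higher and 254 lower, so the higher side fell from 72.2% to 59.0% of the calls. With adult replicate 2 in place of replicate 1, 260 were higher and 289 lower. The 597 calls between the ages were 9.93% of the genes compared, and the 556 calls between the adult libraries were 9.77%.

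**Figure D1:**
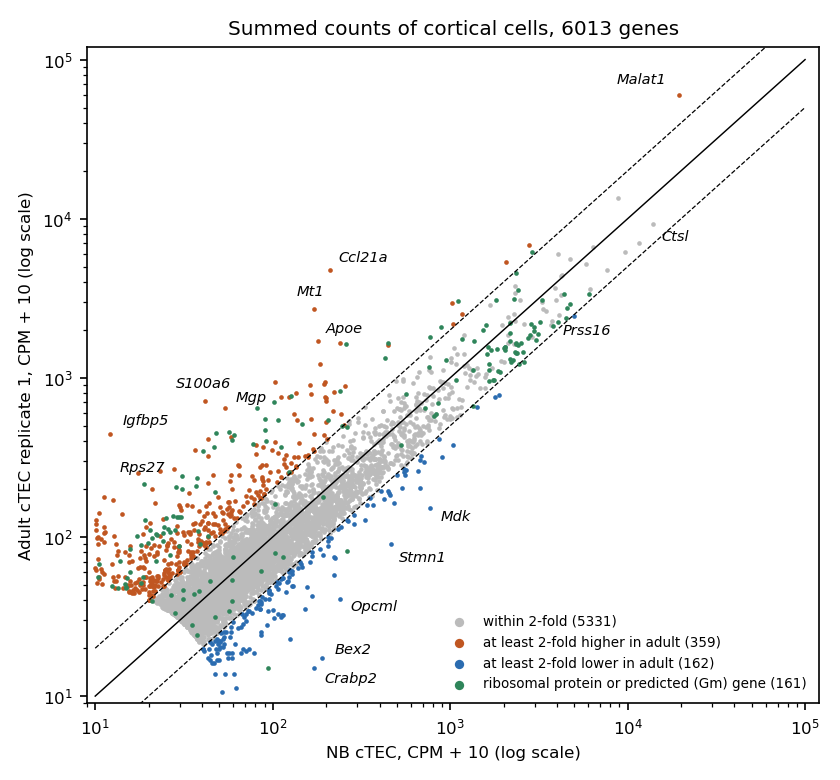
Each point is one of 6013 genes, with its level in NB cortical cells on the x axis and in adult replicate 1 cortical cells on the y axis, both as CPM + 10 on log scales. Dashed lines mark 2-fold; Igfbp5, Mt1 and S100a6 lie far above them, Crabp2, Bex2 and Opcml far below, and the cTEC genes Prss16 and Ctsl lie inside.

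Of Psmb11, Prss16 and Ctsl, which make and trim peptides in the cortex, Ctsl was within 2-fold of NB in both adult libraries. Psmb11 and Prss16 were too, but they chose the cells, so their levels in cortical cells depend on that choice. In the list of 9 genes for peptide processing and surface proteins that holds them, 1 was higher in adult replicate 1, the chemokine receptor gene Ackr4, and 0 were lower, a share near the 7.17% and 2.76% of all genes. In all cells, 1 of the 9 was higher and 2 were lower, Prss16 and Psmb11, beside 8.02% and 3.33% of all genes. Psmb11 was at 1360 CPM in NB, 936 in adult replicate 1 and 1625 in adult replicate 2, so the adult libraries lay on either side of NB. Prss16 was at 3743, 2278 and 3558 CPM in the same order, and both genes were used to choose the cells. Ctsl, which cleaves proteins in the lysosome, was at 13825, 9265 and 11037 CPM. Both adult libraries were below NB, by less than 2-fold.

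Among factors that cTEC provide to thymocytes, Ccl25, Dll4 and Cxcl12 varied at least as much between the adult libraries as between NB and adult replicate 1. Ccl25, the chemokine that draws progenitors in, was at 4201 CPM in NB, 3302 in adult replicate 1 and 4488 in adult replicate 2. Dll4, the Notch ligand that sets T lineage fate, was at 55.0, 26.5 and 58.3 CPM, and Cxcl12 was at 873, 934 and 1821 CPM. Il7, the survival cytokine of early thymocytes, was at 281, 175 and 190 CPM, so that both adult values lay below NB by less than 2-fold. Foxn1, the transcription factor of thymic epithelium, was at 97.2, 127 and 88.9 CPM. Ackr4, a scavenging chemokine receptor of cortical cells, was at 96.3 CPM in NB, 212 in adult replicate 1 and 120 in adult replicate 2, and was called higher in replicate 1.

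The MHC class I pathway held 8 higher and 0 lower genes of 19, with a median log2 ratio of 0.41, against 7.17% higher, 2.76% lower and a median of -0.12 over all 6013 genes. Over the 18 members at 20 CPM or more in both libraries, 7 were higher, with a median of 0.24. With adult replicate 2 the median of the 19 was 0.20, against -0.25 over all genes. There 2 of the 19 were at least 2-fold higher and 1 lower, beside 260 and 289 of the 5683 genes that pass the filter with replicate 2. B2m, the light chain of every class I molecule, was at 2062 CPM in NB, 5348 in adult replicate 1 and 3363 in adult replicate 2. The ratio for replicate 1 was 2.59 (2.53–2.65). The heavy chains H2-K1 (1026, 2157 and 1398 CPM) and H2-D1 (1159, 2493 and 1336 CPM) were 2.10-fold and 2.15-fold higher in replicate 1, and under 2-fold higher in replicate 2. In cells with at least 3 cortical UMIs, H2-K1 was at 1023, 1931 and 1330 CPM and H2-D1 at 1157, 2211 and 1242 CPM, no longer called. B2m, at 2057, 4547 and 3122 CPM there, was still called in replicate 1. In the adult mTEC library B2m was at 10766 CPM, H2-K1 at 2775 and H2-D1 at 3681. The part of medullary RNA in these genes was not tested. H2-Q4, a non-classical heavy chain, was at 33.5 CPM in NB, 315 in adult replicate 1 and 209 in adult replicate 2. H2-Q4, H2-Q6 and H2-Q7 are near-identical copies whose reads can be split between them, so their single values are uncertain. H2-T23, another class I heavy chain, was at 143 CPM in NB and at 311 and 57.4 CPM in the adult libraries, which moved in opposite directions. In cells with at least 3 cortical UMIs it was at 143, 269 and 54.4 CPM, and no longer called higher in replicate 1.

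The proteasome subunits went both ways. Psmb8, an interferon-inducible catalytic subunit, was at 75 CPM in NB, 265 in adult replicate 1 and 160 in adult replicate 2, a ratio of 3.54 (3.18–3.93) for replicate 1. Psmb9, of the same inducible set, was at 778, 679 and 780 CPM, and Psmb10 was at 1554, 858 and 1333 CPM. The 3 constitutive catalytic subunits Psmb5, Psmb6 and Psmb7 were all below NB in both adult libraries, where 59.7% and 70.4% of all genes compared were below NB. In replicate 1, 1 of them passed 2-fold at a log2 ratio of -1.05, beside 2.76% of all genes, and in replicate 2 0 did. The gene that passed was Psmb6, at 850 CPM in NB, 404 in adult replicate 1 and 525 in adult replicate 2.

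Of 11 MHC class II genes compared, 1 was higher and 0 were lower, near the 7.17% and 2.76% of all genes. The median was 0.09 with replicate 1 and 0.13 with replicate 2, against -0.12 and -0.25 over all genes, small enough that another scaling can turn its sign. H2-Ab1 was at 6358, 6619 and 5606 CPM, and H2-Aa at 3900, 3681 and 3395 CPM. The 1 called gene, the lysosomal protease Ctss, was at 5.59 CPM in NB and 67.3 CPM in adult replicate 1, where 64.2% of its UMIs came from 1 cell. In adult replicate 2 it was at 7.21 CPM, and it passed the filter through the adult level alone.

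The list of interferon-stimulated genes had 5 higher and 0 lower genes of 28, with 1 of the 5, Oas1a, through the adult level alone, against 7.17% and 2.76% of all genes. The median was 0.21 in adult replicate 1 and -0.17 in replicate 2, beside -0.12 and -0.25 over all genes. In replicate 2, 2 of the 28 were at least 2-fold higher and 3 lower, beside 260 and 289 of the 5683 genes that pass the filter with replicate 2. Oas1a, an RNA sensor of the antiviral response, was at 8.63 CPM in NB, 42.0 in adult replicate 1 and 31.4 in adult replicate 2. Ifi47, an interferon-induced GTPase, was at 37.6, 125 and 120 CPM. Both were above NB by over 2-fold in each adult library. Irgm1, a GTPase of the same family, was at 148 CPM in NB, 307 in adult replicate 1 and 59.4 in adult replicate 2, again in opposite directions. Isg15, a ubiquitin-like protein made on interferon signalling, was at 901, 938 and 783 CPM, and the chemokine Cxcl10 was at 2101, 1843 and 1290 CPM.

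The promoter windows below show that genes with and without a difference share the same letters. They come from RefSeq on mouse build GRCm38.p6, 5′ to 3′ on the strand of the gene, and capitals mark TTTC repeated after 2 other bases, read on either strand, the core of the interferon-stimulated response element. It was searched from 250 bases before to 50 bases after each start site, overlapping matches included, and was found in 3.44% of 32851 promoters. The table held 23 of the interferon-stimulated genes and 17 of the class I genes. Among interferon-stimulated genes with a match, 4 of 14 compared were higher in adult replicate 1, and among those without one, 1 of 8. In the class I list the figures were 2 of 3 and 6 of 14. The matches are a description of the letters and were not tied to any factor. The genes are B2m (chr2:122147538-122147567, + strand), Oas1a (chr5:120907526-120907555, - strand), Gbp2 (chr3:142620594-142620623, + strand), a guanylate-binding protein at 117, 247 and 129 CPM, and Isg15 (chr4:156200871-156200900, - strand).
B2m: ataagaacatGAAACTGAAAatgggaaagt
Oas1a: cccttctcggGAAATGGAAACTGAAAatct
Gbp2: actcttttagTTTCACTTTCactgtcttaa
Isg15: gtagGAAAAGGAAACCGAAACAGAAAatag

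The highest log2 ratio in cortical cells, with 10 CPM added, was that of Igfbp5, which binds insulin-like growth factors outside the cell (GRCm38, chr1:72857932-72874884). It had 54 UMIs in NB cells, or 2.19 CPM, against 706 UMIs or 436 CPM in adult replicate 1 and 70.1 CPM in adult replicate 2. The plain ratio of CPM for replicate 1 was 199 (151–268), and genes nearer to 0 in NB, such as Iapp, Msln and Bpifa1, had higher plain ratios. It was spread over cells: 168 of the 325 cells of adult replicate 1 had a UMI, against 37 of 3589 in NB, and the richest cell held 4.11% of the adult UMIs. The adult libraries differed from each other by several-fold, and both were far above NB. In cells with at least 3 cortical UMIs the levels were 2.12, 385 and 43.9 CPM.

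Igfbp4 and Igfbp7, of the same family, were also called higher. Igfbp4, Igfbp5 and Igfbp7 were near 0 in NB and passed the filter through the adult level, so that they were bound to be called, and no count over the family is given. Igfbp4 was at 2.84 CPM in NB, 43.2 in adult replicate 1 and 53.4 in adult replicate 2. Igfbp7 was at 1.22, 48.8 and 164 CPM. Igfbp2 was at 61.6, 128 and 102 CPM, just under 2-fold on the log2 scale at 0.95. The receptor Igf1r went the other way, at 147, 84.5 and 43.9 CPM, and passed 2-fold in replicate 2 only.

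S100a6, Apoe, Mgp, Ly6a, Gstp1 and Id2 were higher in both adult libraries. S100a6, a calcium-binding protein, was at 31.5 CPM in NB, 710 in adult replicate 1 and 336 in adult replicate 2, a ratio of 22.5 (20.6–24.7) for replicate 1. Apoe, the lipid-carrying apolipoprotein, was at 169, 1688 and 757 CPM, a ratio of 9.96 (9.49–10.5). Mgp, an extracellular inhibitor of calcification, was at 44.1, 636 and 411 CPM. Ly6a, the surface protein Sca-1, was at 13, 250 and 243 CPM. The glutathione transferase Gstp1 was at 4.13 CPM in NB, 130 in adult replicate 1 and 90.3 in adult replicate 2. Id2, an inhibitor of basic helix-loop-helix factors, was at 31.9, 146 and 143 CPM. In each of these genes both adult libraries were at least 2-fold above NB. The adult mTEC library was also above NB in each, with S100a6 at 431 CPM, Apoe at 870, Mgp at 227, Ly6a at 547, Gstp1 at 37.1 and Id2 at 225. The part of medullary RNA in these genes was not tested. Some levels depended on the selection of cells. In cells with at least 3 cortical UMIs, Ly6a was at 11.8, 113 and 86.8 CPM, Apoe at 167, 1046 and 469 CPM, and Mgp at 42.1, 363 and 276 CPM, lower in both adult libraries but still over 2-fold above NB.

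Dcn, Acta2 and Tagln were higher, and Dcn and Acta2 are also markers of mesenchymal cells. The matrix proteoglycan Dcn was at 26.5 CPM in NB, 342 in adult replicate 1 and 239 in adult replicate 2. Smooth-muscle actin Acta2 was at 11.7, 153 and 113 CPM and Tagln at 17.7, 255 and 156 CPM. In cells with at least 3 cortical UMIs they were at 11.2, 93.0 and 109 CPM and at 17.7, 154 and 134 CPM. The 8 mesenchymal markers, which include these 2, summed to 41.1, 506 and 357 CPM, and to 39.9, 371 and 278 CPM in cells with at least 3 cortical UMIs. The other 6 were at or near 0. Col1a1 and Pdgfra, which define fibroblasts, were at 0 in both adult libraries, and Col3a1 was at 0.608 CPM in NB, 3.70 in adult replicate 1 and 3.46 in adult replicate 2. In the adult mTEC library Dcn was at 78.1 CPM, Acta2 at 270 and Tagln at 205.

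The metallothioneins Mt1 and Mt2, which bind zinc and copper, were higher together. Mt1 was at 160 CPM in NB, 2704 in adult replicate 1 and 793 in adult replicate 2, a ratio of 16.9 (16.2–17.6) for replicate 1. Mt2 was at 93.4, 930 and 302 CPM, a ratio of 9.96 (9.33–10.6). Both genes lie side by side on chromosome 8. Windows of their promoters are shown for the letters TGCNCNC in capitals, a looser pattern than the core of the metal response element, chosen after the values were seen. Over the same 300 bases and both strands, Mt1 held 3 matches, and 7.10% of all promoters held at least as many. Mt2 held 6, and 0.225% held at least as many. The windows are chr8:94179054-94179083 for Mt1 and chr8:94172486-94172515 for Mt2, both on the + strand.
Mt1: gcggtcccgctgTGCACACtggcgctccag
Mt2: ccttTGCGCTCagctccttTGCTCTCagtc

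The antioxidant and metallothionein list, which includes these genes, held 3 higher and 2 lower of 23, against 7.17% and 2.76% of all genes. The third higher gene, the secreted peroxidase Gpx3, was at 2.67, 46.3 and 26.3 CPM, and at 2.61, 38.2 and 4.26 CPM in cells with at least 3 cortical UMIs. The lower genes were Nqo1 and Gsta4. Nqo1, a quinone reductase, was at 470 CPM in NB, 153 in adult replicate 1 and 198 in adult replicate 2. Gsta4, a glutathione transferase, was at 255, 117 and 190 CPM, and Hmox1, which degrades haem, at 32.9, 33.3 and 19 CPM.

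**Figure D2:**
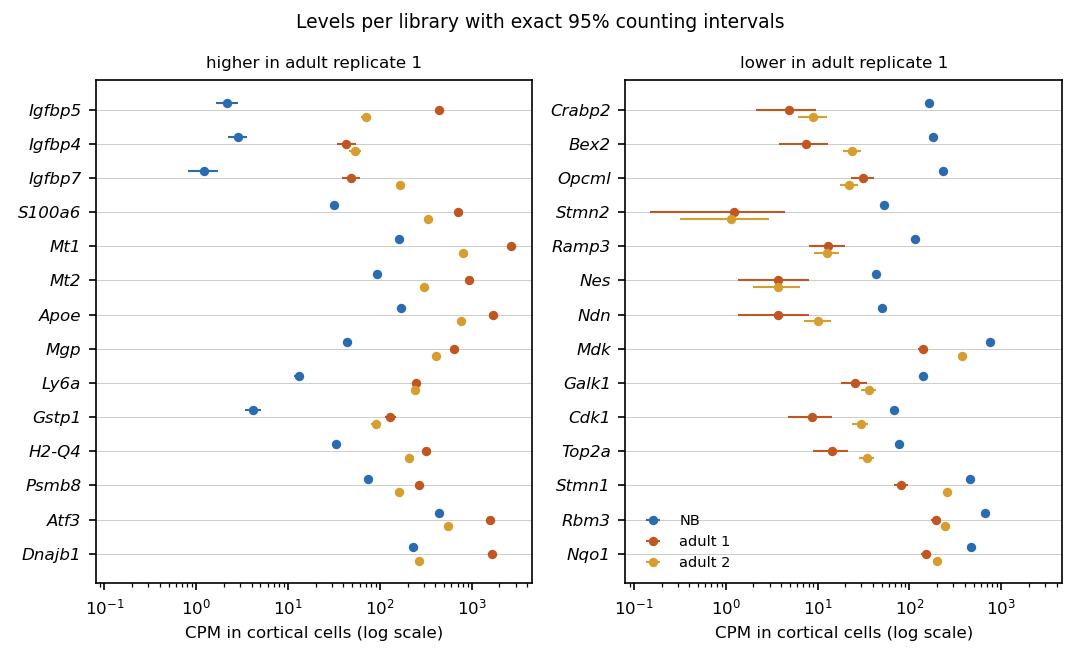
Points give the level of each gene in the cortical cells of NB, adult replicate 1 and adult replicate 2 in CPM on a log axis, with exact 95% counting intervals as bars, for 14 genes higher (left) and 14 lower (right) in adult replicate 1. The adult points of Igfbp5, Mt1, Atf3 and Dnajb1 lie apart from each other, whereas those of Ly6a, Opcml and Ramp3 lie close together.

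These differences were also seen as shares of cells at equal depth. After thinning to 2000 UMIs, 3589 NB, 297 adult replicate 1 and 420 adult replicate 2 cortical cells remained, and 28 and 5 shallower adult cells were left out. Mt1 was found in 15.8% of NB cells, in 75.8% of adult replicate 1 cells and in 43.6% of adult replicate 2 cells. Igfbp5 was found in 0.306%, 40.7% and 11.2%, and Mgp in 7.63%, 48.5% and 35.7%. Crabp2 was found in 26.4% of NB cells and in 1.01% and 1.19% of the adult cells. Mdk was found in 72.1%, 21.5% and 42.6%. Free RNA in droplets was not measured, and its part in the low shares was not tested.

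**Figure D3:**
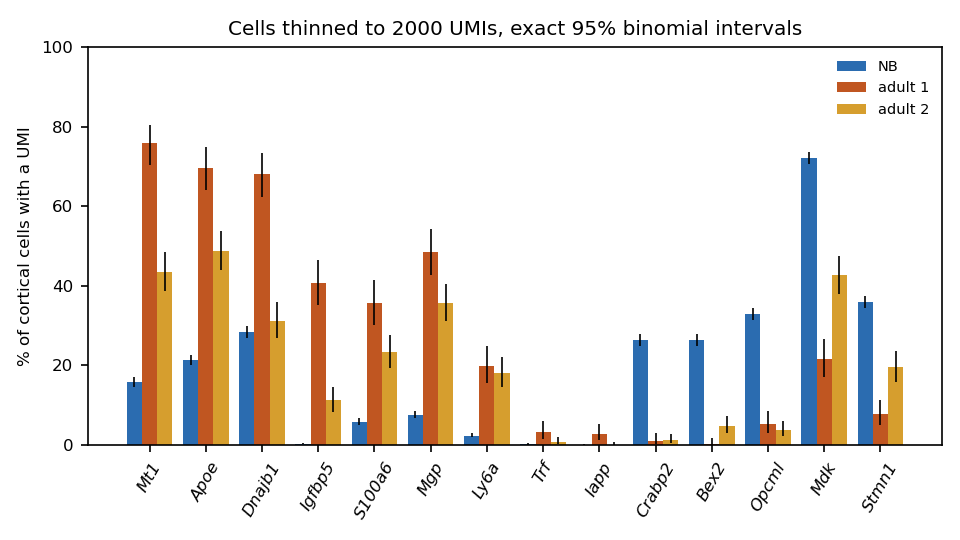
Bars give the percent of cortical cells with at least 1 UMI of each gene after thinning to 2000 UMIs, shallower cells left out, with exact 95% binomial intervals. Mt1, Apoe, Igfbp5 and Mgp were found in more adult than NB cells, and Crabp2, Bex2, Opcml, Mdk and Stmn1 in fewer.

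Immediate early genes, which are switched on within minutes by growth factors or stress, were on the higher side in adult replicate 1. Of 33 compared, 14 were higher and 0 lower there, 3 of the 14 through the adult level alone, against 7.17% and 2.76% of all genes. Of the 30 at 20 CPM or more in both libraries, 11 were higher and 0 lower, beside 229 and 104 of 5200 genes in all. The median was 0.85, and 0.10 in adult replicate 2, beside -0.12 and -0.25 over all genes. In replicate 2, 6 of the 33 were at least 2-fold higher and 1 lower, beside 260 and 289 of the 5683 genes that pass the filter with replicate 2. Atf3, a stress-induced transcription factor, was at 439 CPM in NB, 1593 in adult replicate 1 and 554 in adult replicate 2. Cyr61, a matrix-associated signalling protein, was at 122, 581 and 223 CPM. In both, replicate 2 was closer to NB than to replicate 1. Fos (2314, 3404 and 1853 CPM) and Jun (2325, 3765 and 1558 CPM) were under 2-fold higher in replicate 1 and below NB in replicate 2. Fosb was at 482, 939 and 186 CPM. In this group 5 of 33 genes were at least 2-fold above NB in both adult libraries, beside 126 of 5979 genes in all (2.11%). They were Klf4 (40.6, 145 and 113 CPM), Btg1 (192, 402 and 402 CPM), Jund (33.8, 153 and 953 CPM), Klf2 (28.6, 95 and 422 CPM) and Ier5 (15, 72.8 and 66.4 CPM). Ier5 passed the filter through the adult level alone.

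Heat shock chaperones gave 6 higher and 0 lower of 20, 3 of the 6 through the adult level alone, against 7.17% and 2.76% of all genes. Of the 17 at 20 CPM or more in both libraries, 3 were higher and 0 lower, beside 229 and 104 of 5200 genes in all. The medians were 0.21 in both adult libraries, beside -0.12 and -0.25 over all genes. Dnajb1, a co-chaperone of Hsp70, was at 231 CPM in NB, 1648 in adult replicate 1 and 269 in adult replicate 2. The inducible Hsp70 gene Hspa1a was at 113, 751 and 205 CPM, and Hspb1, a small heat shock protein, at 10.5, 112 and 44.1 CPM. Hspb1 was at 10.2, 58.2 and 13.4 CPM in cells with at least 3 cortical UMIs, so that replicate 2 was near NB. Among constitutive chaperones, Hspa8 was at 2306, 2272 and 1910 CPM and Hspe1 at 644, 623 and 742 CPM. In Dnajb1 and Hspa1a the adult libraries differed from each other by more than replicate 2 differed from NB. The part of cell handling in the stress genes was not tested.

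Crabp2, Bex2 and Opcml had the lowest log2 ratios with 10 CPM added, predicted genes left out. Crabp2, which carries retinoic acid in the cell, was at 161 CPM in NB, 4.94 in adult replicate 1 (8 UMIs) and 8.94 in adult replicate 2. It was 32.7-fold lower in replicate 1 (16.6–75.8). Bex2, a small X-linked adaptor protein, was at 179, 7.41 and 23.9 CPM, 24.2-fold lower (13.9–46.9). Opcml, a neural cell adhesion molecule, was at 230, 30.9 and 22.2 CPM, 7.45-fold lower (5.64–10.1). Both adult libraries were far below NB in all 3 genes.

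Stmn2, a microtubule regulator of neurons, was at 52.3 CPM in NB, where it had 1292 UMIs, and had 2 UMIs in adult replicate 1, a ratio of 42.4 (11.7–351). Nes, an intermediate filament of progenitor cells, was at 43.7, 3.70 and 3.75 CPM. Ramp3, a receptor activity-modifying protein, was at 115, 13 and 12.7 CPM. Galk1, which phosphorylates galactose, was at 141, 25.3 and 36.1 CPM, and Rbm3, a cold-inducible RNA-binding protein, at 664, 194 and 242 CPM. The heparin-binding growth factor Mdk was at 759 CPM in NB, 141 in adult replicate 1 and 370 in adult replicate 2. Its relative Ptn was at 284, 146 and 124 CPM. Grp, gastrin-releasing peptide, was at 101, 21.6 and 18.2 CPM, and Racgap1, a GTPase activator needed for cell division, at 105, 22.2 and 25.1 CPM. H2afy2, which encodes a macroH2A histone, was at 213, 47.5 and 85.1 CPM, and Pnmal2 at 56.3, 8.64 and 1.44 CPM. Ccdc102a was at 42.1 CPM in NB and had 1 and 3 UMIs in the adult libraries, a ratio of 68.3 (12.2–2699) for replicate 1.

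Imprinted and fetal growth genes are given by their values, because 6 of the 10 compared passed the filter through the NB level alone. Of the 4 at 20 CPM or more in both libraries, 0 were higher and 1 was lower, beside 229 higher and 104 lower of 5200 genes in all. Ndn, an imprinted growth suppressor, was at 50.6, 3.70 and 10.1 CPM. Peg3 was at 43.1, 11.1 and 8.66 CPM, Grb10, an adaptor that dampens insulin and IGF receptor signalling, at 47.4, 13.6 and 7.21 CPM, and the cell cycle inhibitor Cdkn1c at 40.7, 12.3 and 5.48 CPM. The imprinted RNA Meg3 was at 46.1, 7.41 and 16.2 CPM. Gnas, also imprinted in part, was the exception in direction at 204, 256 and 521 CPM.

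The embryonic libraries of the study give the levels of some of these genes before birth, selected in the same way. They were dissociated with trypsin and EDTA, the E13.5 cells were sorted as total TEC without the cTEC gate, and the E17.5 library belongs to data set 2. Age cannot be told apart from these differences, so the levels are given without a comparison. At E13.5, E15.5 and E17.5, Crabp2 was at 351, 347 and 177 CPM, Stmn2 at 1172, 527 and 187 CPM, and Mdk at 1217, 901 and 682 CPM. Opcml was at 52.6, 336 and 340 CPM. B2m was at 137, 564 and 958 CPM.

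Cks1b, used in mitosis, was lower in adult replicate 1. The mitotic genes Cdk1, Top2a and Ube2c were lower too, but were under 20 CPM there and passed the filter through the NB level alone. Of 17 genes of G2 and M phase at 20 CPM or more in both libraries, 0 were higher and 5 lower, against 229 higher and 104 lower of the 5200 such genes in all. Another 10 passed the filter through the NB level alone, and all 10 were called lower, beside 62 of 373 such genes in all. The filter chose those 10 by their high NB level, so their calls are not counted as support. Cdk1, the kinase that starts mitosis, was at 68.3 CPM in NB, 8.64 in adult replicate 1 and 29.4 in adult replicate 2. Top2a, which untangles chromosomes, was at 76.3, 14.2 and 34.3 CPM, and Ube2c, which marks mitotic cyclins for degradation, at 63.5, 9.87 and 42.1 CPM. Cks1b, a partner of cyclin-dependent kinases, was at 157, 32.7 and 86.3 CPM. Replicate 2 lay between NB and replicate 1 in these genes. Over all 27 compared, those passing through the NB level included, the median was -1.15 in replicate 1 and -0.56 in replicate 2. All genes had medians of -0.12 and -0.25. In replicate 2, 1 of the 27 was at least 2-fold lower. Mki67, which marks cycling cells, was an exception in size at 42.0, 38.9 and 21.9 CPM. Stmn1, a microtubule regulator high in dividing cells, was at 453, 80.8 and 259 CPM.

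Of 7 genes of S phase at 20 CPM or more in both libraries, 0 were higher and 0 lower, beside 229 and 104 of 5200 in all. Of 8 others that passed the filter through the NB level alone 4 were lower, beside 62 of 373 in all. Mcm6, a subunit of the replicative helicase, was at 44.4, 15.4 and 19 CPM, whereas Pcna, the clamp of DNA polymerase, was at 25.2, 32.1 and 59.4 CPM. Among G1 regulators, the inhibitor Cdkn1a (p21) was at 54.3, 235 and 105 CPM and Cdk4 at 360, 149 and 220 CPM. Myc was at 26.3, 30.2 and 45.6 CPM.

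Ribosome biogenesis gave 1 higher and 0 lower of 46, beside 7.17% and 2.76% of all genes. Its medians were -0.43 in replicate 1 and -0.42 in replicate 2, against -0.12 and -0.25 over all genes, and 38 of 46 genes were below NB in replicate 1 and 40 in replicate 2, where 59.7% and 70.4% of all genes compared were below NB. Nucleolin, Ncl, was at 1128 CPM in NB, 575 in adult replicate 1 and 430 in adult replicate 2, and the nucleolar methyltransferase Fbl at 186, 127 and 126 CPM. Translation factors gave 0 higher and 3 lower of 38, with medians of -0.63 and -0.29, the second near that of all genes in replicate 2. Eif3e, an initiation factor subunit, was at 441, 178 and 389 CPM, and the elongation factor Eef1a1 at 2874, 1805 and 2245 CPM. Tcof1, the nucleolar factor that was called higher, was at 43.8, 110 and 27.1 CPM.

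**Figure D4:**
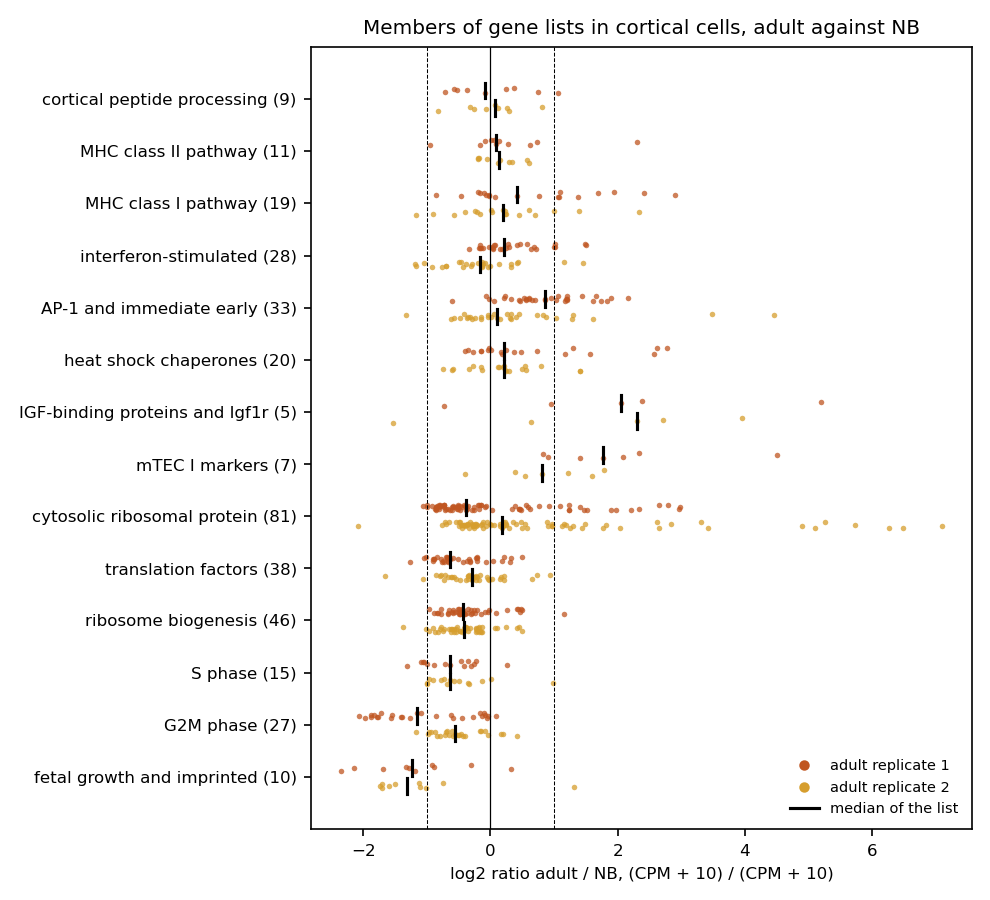
Each point is a member of a gene list that passed the filter on low values, with its log2 ratio of adult over NB (10 CPM added to both) for replicate 1 and for replicate 2, and black bars are medians. The median of immediate early genes is 0.85 in replicate 1 and 0.10 in replicate 2, and that of class I genes 0.41 and 0.20; most points of the IGF and fetal growth lists passed the filter through one library alone.

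Across all lists of pathways and complexes, 32 had at least 5 compared members, and the median lay between -0.5 and 0.5 in 23 of them. Of the 7 mucosal defence genes compared, Wfdc2 alone was at 20 CPM or more in NB, and the other 6 passed the filter through the adult level. The antibacterial lectin Reg3g was at 2.59, 160 and 6.35 CPM, Fcgbp, a mucus protein that binds immunoglobulin, at 1.34, 98.1 and 11.0 CPM, and Spink5, a protease inhibitor of epithelia, at 0.810, 53.1 and 2.31 CPM. In these 3 genes adult replicate 2 was much closer to NB than to adult replicate 1, whereas Wfdc18 (1.26, 106 and 69.2 CPM) and Wfdc2 (105, 300 and 481 CPM) were over 2-fold above NB in both. With at least 3 cortical UMIs required of a cell, the adult levels of all 5 were lower. Wfdc18 was at 1.10, 26.9 and 19.7 CPM there, Reg3g at 2.53, 37.4 and 1.31 CPM and Fcgbp at 1.27, 26.9 and 1.64 CPM. Wfdc2 was at 99.6, 147 and 130 CPM, within 2-fold, and Spink5 at 0, 3.48 and 1.31 CPM. None of the 5 was called there, because all but Wfdc2 had a mean of NB and adult replicate 1 under 20 CPM.

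Genes for cytosolic ribosomal proteins could not be read as a group. Of 81, 15 were higher and 2 lower in replicate 1, against 7.17% and 2.76% of all genes, while the median was -0.39 in replicate 1 and 0.18 in replicate 2. Rps27 was at 20.8 CPM in NB, 231 in adult replicate 1 and 4229 in adult replicate 2, and Rpl23a at 36.5, 359 and 2476 CPM. Abundant members lay on both sides of NB: Rps9 was at 2607, 1248 and 1593 CPM, but Rpl41 at 2872, 6166 and 8107 CPM, Rps29 at 1094, 3049 and 4543 CPM, Rpl38 at 881, 2089 and 3025 CPM and Rps28 at 763, 1805 and 4733 CPM. Of 80 predicted genes compared, 57 were higher and 2 lower in replicate 1. Gm10076 was at 71.1, 634 and 84.2 CPM and Gm10073 at 92.4, 694 and 11.3 CPM. Ribosomal protein genes share near-identical sequence with many processed copies, and the 2 data sets were counted against gene lists that differed, with 27514 genes in common. The values of these genes are therefore uncertain. Without predicted and ribosomal protein genes, 359 genes were higher and 162 lower.

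Several of the highest genes were carried by 1 cell of adult replicate 1. In 14 of the 431 higher genes, over 50% of the UMIs came from the richest cell, and 401 of the 431 remained higher when the richest cell of each gene was left out. Iapp, the islet hormone amylin, had 191 UMIs in adult cortical cells, of which 178 were in 1 cell (93.2%), and 2 in NB. Trf, the iron carrier transferrin, had 271 UMIs with 73.1% in 1 cell, and Reg3g had 260 with 76.9% in 1 cell. Msln, the surface protein mesothelin, was at 0.122, 101 and 3.75 CPM with 57.9% of its adult replicate 1 UMIs in 1 cell, and Srgn, a proteoglycan of blood cell granules, at 7.41, 243 and 49.3 CPM with 37.2%. In cells with at least 3 cortical UMIs of adult replicate 1, Iapp was at 6.95 CPM, Trf at 14.8, Msln at 10.4 and Srgn at 55.6 CPM. C1qa, a complement gene of macrophages, had 143 UMIs with 140 in 1 cell. The 12 myeloid markers summed to 9.44 CPM in NB, 443 in adult replicate 1 and 18.2 in adult replicate 2. In cells with at least 3 cortical UMIs they were at 9.48, 42.6 and 11.5 CPM.

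Ccl21a, given above for all cortical cells, was at 193 CPM in NB, 3754 in adult replicate 1 and 158 in adult replicate 2 in cells with at least 3 cortical UMIs, so that replicate 2 no longer lay above NB. Its copies share near-identical sequence, so reads can be split between them. UMIs of Ccl21a were found in 498 of 3589 NB cells (13.9%), in 183 of 325 cells of adult replicate 1 and in 25 of 425 cells of adult replicate 2 (5.88%). The share of cells in replicate 2 was thus below NB, although its CPM in all cortical cells was above. The 7 markers of mTEC I, the Ccl21a-producing subset, summed to 534, 5674 and 972 CPM. In cells with at least 3 cortical UMIs they summed to 526, 4661 and 565 CPM, so the stricter selection left adult replicate 1 high and replicate 2 close to NB. Krt5 and Krt14, keratins of basal and medullary epithelium, were at 86.5, 246 and 130 CPM and at 33.3, 209 and 140 CPM. The cortical keratins Krt8 (6122, 3608 and 3904 CPM) and Krt18 (11651, 7022 and 7673 CPM) were below NB by less than 2-fold. Thymocyte markers summed to 101, 133 and 135 CPM, and the 8 endothelial markers to 14.7, 56.8 and 2.60 CPM. The part of medullary RNA in these genes was not tested.

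Summed over all cells that passed the filters, 486 of 6059 genes were higher in adult replicate 1 (8.02%) and 202 were lower (3.33%). With TMM scaling, which moved the median by -0.13, the counts were 409 and 338. The 8 genes that differed most from the cortical result were Bpifa1, Klk1, Gsto1, Wfdc2, Plac8, Gp2, Scgb3a2 and Ltf, and the cortical rule had removed cells high in the first of them.

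Bpifa1 itself had 11 UMIs in all NB cells, or 0.445 CPM, and was at 2897 CPM in adult replicate 1 and 1448 in adult replicate 2. Its UMIs in adult replicate 1 came mostly from the 19 cells with at least 20 of them, 6225 of 6542. It was nevertheless found in 143 of the 325 cortical cells, with at most 12 UMIs in 1 cell, and the part of free RNA in those UMIs was not tested. Wfdc2, a secreted protease inhibitor, was at 105 CPM in NB, 1613 in adult replicate 1 and 1094 in adult replicate 2, and at 18332 CPM within the cells high in Bpifa1. The keratin Krt19 was at 0.849, 209 and 94.6 CPM, and the tight junction gene Cldn4 at 0.930, 134 and 47.4 CPM. Levels of both were highest in the same cells, at 2386 and 963 CPM.

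Wfdc18, a secreted protease inhibitor, was at 1359 CPM in the 163 cells of adult replicate 1 without a cortical UMI and at 486 CPM in the cells high in Bpifa1. The tissue kallikrein Klk1 had 0 UMIs in NB and 491 in adult replicate 1, which is at least 1793-fold higher when set against 3 counts in the NB library. Of those UMIs, 93.1% came from 1 cell. Ccl21a was at 7956 CPM in the cells without a cortical UMI and at 111 CPM in the cells high in Bpifa1. Ly6a was at 250 CPM in cortical cells, 1288 in cells without a cortical UMI and 3963 in cells high in Bpifa1.

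When all cells were summed, a selection that does not use these genes, Prss16 and Psmb11 were called lower in adult replicate 1. Only the shift from the cortical ratios is fixed by the cortical rule, because the cells left out of it had no UMI of either gene or were high in Bpifa1. Prss16 went from a log2 ratio of -0.71 in cortical cells to -1.18 in all cells, and Psmb11 from -0.53 to -1.0. Ccl25 went from -0.35 to -0.79 and Tbata, a cortical gene of unclear function, from 0.24 to -0.20. In contrast, Mt1 was at 2704 CPM in cortical cells and 2733 in all cells of adult replicate 1, and Igfbp5 at 436 and 433 CPM. The levels of Mt1 and Igfbp5 in adult replicate 1 thus differed little between cortical and all cells. In cells with at least 3 cortical UMIs, Igfbp5 was at 385 CPM in replicate 1. In replicate 2 it was at 43.9 CPM in such cells, against 70.1 CPM in its cortical cells.

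**Figure D5:**
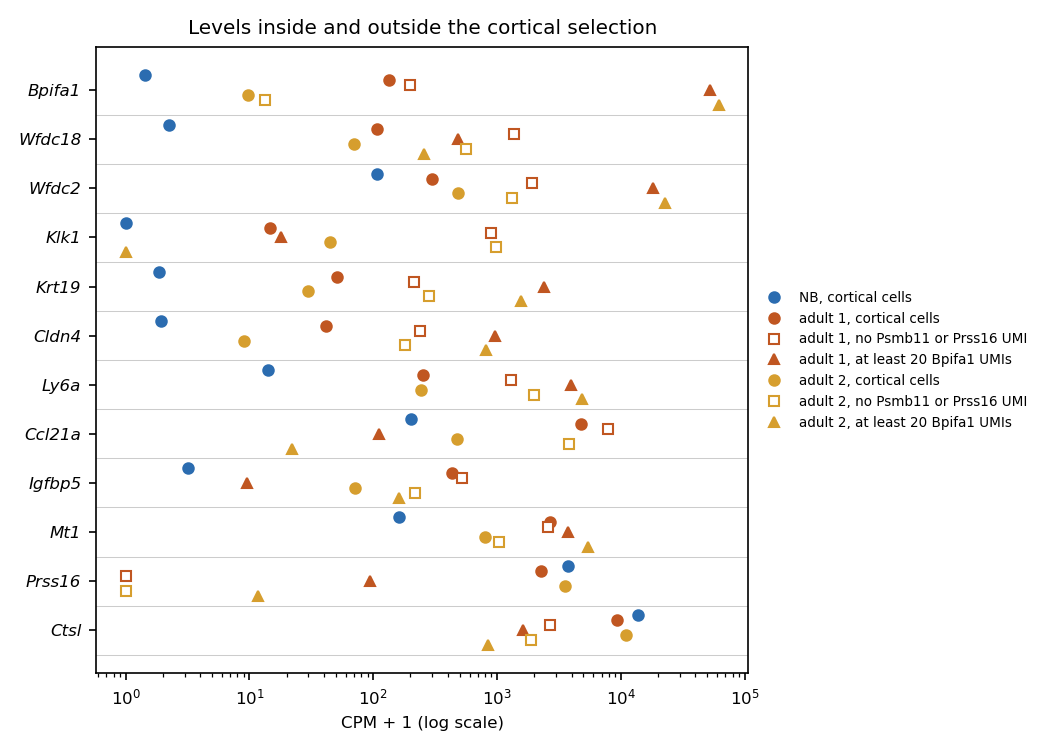
Points give the level of 12 genes as CPM + 1 on a log axis in NB cortical cells and, for each adult library, in cortical cells, cells without a Psmb11 or Prss16 UMI and cells with at least 20 Bpifa1 UMIs. Bpifa1, Wfdc2 and Krt19 are highest in the last kind, Klk1 and Ccl21a in the cells without a cortical UMI, and Mt1 is at a like level in all parts of adult replicate 1.

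Requiring both adult libraries to be at least 2-fold from NB on the same side left 126 higher genes of 5979 (2.11%) and 66 lower genes (1.10%). Both ratios use the 1 NB library, so this is a count of genes and not 2 independent results. Among the genes named above, the higher set held Ly6a, S100a6, Mgp, Dcn, Gstp1, Igfbp5, Id2 and Mt1, and the lower set held Crabp2, Opcml, Bex2, Stmn2, Ramp3, Nes, Galk1, Rbm3, Mdk and Nqo1. Id3 (122, 309 and 356 CPM), the small actin-binding protein Tmsb10 (1016, 2933 and 2872 CPM) and the interferon-inducible membrane protein Ifi27 (188, 743 and 748 CPM) were in the higher set at nearly equal adult levels. Atf3, Dnajb1, B2m, Stmn1 and Cdk1 were in neither set, because adult replicate 2 lay within 2-fold of NB with 10 CPM added.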

How the data were processed

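Thymic epithelial cells of each library were sorted, captured in droplets and sequenced as single-cell 3′ libraries, and the authors deposited 1 matrix of UMI counts per library, genes by cells. The submitters' processing notes name bcl2fastq 2.17, STAR 2.5.1b and Cell Ranger 2.0.1, and the matrix header of data set 2 names Cell Ranger 3.0.1. NB cTEC and adult cTEC replicate 1 belong to data set 1, and adult cTEC replicate 2 belongs to data set 2. The matrices hold called cells, and no doublet caller was run here. Droplets with at least 3 UMIs of thymocyte markers were left out as an alternative (170 NB and 15 adult replicate 1 cells).

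Counts were summed over cells that passed the filters, in all cells and in cortical cells, and divided by the summed UMIs to give CPM. Counting intervals are exact (Poisson for a level, conditional binomial for a ratio). Genes were named if they were members of the gene lists, among the 15 largest ratios in each direction whose interval lay wholly beyond 2-fold (non-epithelial marker, receptor, haemoglobin and predicted genes left out), or among the 8 whose ratio in all cells differed most from that in cortical cells. Apoe, Ifi27, Malat1, Rbm3, Tagln, Tmsb10, Gm10073 and Gm10076 were named after their values were seen. The members, lists and rules were chosen with earlier results of these data known. Alternatives were other pseudocounts, filters, scalings and selections of cells, and adult replicate 2. A filter met in both libraries was added after the data were seen. The summing and calling steps were tested on simulated counts. Tools were Python 3.11.15, numpy 2.4.6, scipy 1.17.1, pandas 2.3.3 and, for TMM factors only, edgeR. Promoter sequences are from RefSeq on GRCm38.p6. The 5 other libraries of the series were used only for the counts of cells, the embryonic levels, the share of mTEC with a cortical UMI and levels in mTEC.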

Additional observations from a re-analysis of the deposited data

How the results depend on the processing

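The counts of genes at least 2-fold apart depended on the added CPM and on the filter. In cortical cells, 597 became 235 (195 higher, 40 lower) with 50 CPM added, 197 with a mean of at least 100 CPM and 192 where both adult libraries had to pass, a requirement added after seeing the data. In all cells, 688 became 307 with 50 CPM added and 244 with a mean of at least 100 CPM. Between the adult libraries, 556 became 204 and 170 in the same order. Where each library had to reach 20 CPM, also added after seeing the data, the counts were 333 in cortical cells, 387 in all cells and 318 between the adult libraries. Under the other alternatives each count stayed within 1.5 times the reported one, although their split between directions moved with the scaling, to 374 higher and 244 lower with median-of-ratios factors in cortical cells and to 417 and 330 in all cells. Between the adult libraries, TMM turned the split to 301 higher and 272 lower. With adult replicate 2 in place of replicate 1, log2 ratios of genes called with replicate 1 changed sign for Eya1 (-0.41), Gm10073 (-2.27), H2-T23 (-1.18), Irgm1 (-1.19) and Tcof1 (-0.54). The median of sex-linked genes was -0.38 in cortical cells and -0.37 in all cells without a filter on low values, and the median of mTEC III markers was -0.14 with at least 3 cortical UMIs. With 20 CPM required in each library, that last median was -0.052 in cortical cells and -0.14 in all cells. The causes were not tested. Of 127 named or listed genes called with replicate 1 that have a value in replicate 2, 122 had the same direction and 79 were still 2-fold apart. No paired analysis was possible because each age had 1 library and replicate numbers are only names. With 1 library at each age, the spread between animals is not known, and levels under about 32.4 UMIs in the adult cells carry wide counting intervals.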
